A study of Mus musculus with 15 samples.

Results

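The genes described here encode the SMN complex: Smn1, the gene for the survival motor neuron protein, and its 8 partners Gemin2, Ddx20 (also called Gemin3), Gemin4, Gemin5, Gemin6, Gemin7, Gemin8 and Strap (also called Unrip). They were chosen by name, as the known subunits of the complex, and make up 9 of the 36144 gene symbols in the deposited gene table. The question was whether the loss of Smn1 mRNA goes with a change in the mRNAs of its partners. Spinal cord motor neurons of mouse pups were labelled with cholera toxin subunit B, a tracer carried back along the axon, cut out of lumbar segments L1 to L3 by laser capture and profiled by poly(A) RNA-seq of low input. Each of 5 groups had 3 libraries, labelled as biological replicates.

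All mice were on an FVB background, both sexes were used, and all carried 2 human transgenes, SMN2 and SMNΔ7. WT mice had both mouse Smn alleles (Smn+/+;SMN2;SMNΔ7), and the other 4 groups had none (Smn-/-;SMN2;SMNΔ7). The WT and SMA groups received vehicle. The remaining groups were given MW150, an inhibitor of the kinase p38α, at 5 mg/kg (SMA+MW150), Pifithrin-alpha, which inhibits p53, at 2.2 mg/kg (SMA+Pifithrin-alpha), or SMN-C3, a compound that acts on the splicing of SMN2, at 3 mg/kg (SMA+SMN-C3). Mice were injected once a day into the abdominal cavity, starting on postnatal day 0, and tissue was collected on postnatal day 6. No WT group received a compound, so treated mice are compared with SMA and with vehicle-treated WT only. The human transgenes were not analysed here, and whether their reads contributed to the values of mouse Smn1 was not tested.

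The SMN complex loads a ring of Sm proteins onto small nuclear RNAs in the cytoplasm, and so builds the snRNPs, the particles that carry out splicing. SMN and Gemin2 form its core, Gemin5 recognises the small nuclear RNA, Ddx20 is a DEAD-box helicase bound together with Gemin4, and Gemin6, Gemin7, Gemin8 and Strap form a peripheral group. Low SMN protein causes spinal muscular atrophy, in which motor neurons are lost. Partners of the complex are known to depend on one another at the protein level. The data here are of mRNA only.

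Values are TPM (relative transcript abundances scaled to a common total), which are corrected for length and can be compared between genes. Libraries of laser-captured cells can hold RNA of neighbouring cells too, and in such samples fewer cells of a type and less RNA per cell cannot be told apart. The 11 motor neuron markers summed to 7572 to 12696 TPM in the 15 libraries, and none was at 0 in a whole group. In WT most of this sum came from Nefl, Calca, Prph and Nefh, with means of 5472, 2426, 1361 and 961 TPM. Chat and Isl1 had WT means of 92.9 and 65.9 TPM. The share of TPM from 13 mitochondrially encoded genes was 21.9% in WT 1 and 20.4% in SMA+Pifithrin-alpha 3, against 3.76% to 12.6% in the other 13 libraries. Across genes, library pairs correlated with r between 0.838 and 0.972 (105 pairs). The summed level of 10 microglia markers was 42.3 to 80.4 TPM in WT, 150 to 175 TPM in SMA, 111 to 145 TPM in SMA+MW150, 63.4 to 118 TPM in SMA+Pifithrin-alpha and 80.2 to 104 TPM in SMA+SMN-C3, and no marker was at 0 in a whole group. Its part in the results below was not tested.

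Smn1 lies on the plus strand of chromosome 13 (GRCm38 chr13:100124852-100137690). Its full-length transcript, ENSMUST00000022147, has 9 annotated exons and 1222 bases. Other annotated Smn1 transcripts leave this path early, and the sequences show where, because the Smn1 signal left in Smn-/- libraries was assigned mostly to these. In each pair the lower-case bases are shared and the capitals mark what follows: the next exon of the full-length transcript, or the retained intron or the extra exon of the short one. The sequences come from the GENCODE M21 transcripts, with 24 bases on each side of the junction.
Full length, exon 3 into exon 4: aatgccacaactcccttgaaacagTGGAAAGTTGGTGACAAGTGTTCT
ENSMUST00000134514, exon 3 into the intron: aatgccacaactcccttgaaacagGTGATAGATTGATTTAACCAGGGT
Full length, exon 1 into exon 2: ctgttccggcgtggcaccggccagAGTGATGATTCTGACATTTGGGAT
ENSMUST00000140745, exon 1 into an extra exon: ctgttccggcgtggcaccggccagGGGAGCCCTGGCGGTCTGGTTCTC

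Smn1 mRNA was low or listed at 0 in the 4 Smn-/- groups, with no difference between the treated groups and SMA that passed the test. In WT, Smn1 stood at 8.97, 16.5 and 23.3 TPM (mean 16.3 ± 7.18 SD, n = 3). In SMA it was 0.462 TPM in 1 library and listed at 0 in the other two. SMA+MW150 libraries held 1.498, 0.162 and 0.252 TPM. SMA+Pifithrin-alpha libraries held 0.452, 0.737 and 0.212 TPM, and SMA+SMN-C3 libraries 0.102, 0 and 0.803 TPM. The lowest WT value was thus above the highest of the 12 Smn-/- values, as the genotype labels call for; of all genes tested, 0.13% were lower in this way. On the log2(TPM+1) scale, which understates the change of low genes, Smn1 was lower in SMA than in WT by a difference of -3.84 (SE 0.42, limma adjusted p = 0.000154) and in all 12 Smn-/- libraries by -3.60 (SE 0.33, limma adjusted p = 1.95e-05). Against SMA, the differences were 0.44 (95% interval -0.44 to 1.32) with MW150, 0.35 (-0.52 to 1.23) with Pifithrin-alpha and 0.15 (-0.73 to 1.03) with SMN-C3, and none passed the test.

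The difference lay in the full-length transcript. The full-length transcript was at 6.40, 16.5 and 21.7 TPM in WT and was listed at exactly 0 in all 12 Smn-/- libraries. Of the 19 member transcripts tested, it was the 1 called at an adjusted p under 0.05, in SMA against WT (0.221% of all tested transcripts called) and in all Smn-/- libraries against WT (0.153% called). Smn1 TPM above 0 was nevertheless listed in 9 of the 12 Smn-/- libraries. Of that residual signal, 88.6% was assigned to 3 short transcripts that reach no further than exon 4 of the full-length transcript. ENSMUST00000134514, annotated as retaining an intron, runs from exon 3 into the next intron and ends within it. It was above 0 in 4 Smn-/- libraries. ENSMUST00000140745, annotated for nonsense-mediated decay, has an extra exon after exon 1 and was above 0 in 5. ENSMUST00000125572, a second intron-retaining transcript, was above 0 in 1. All 3 were at 0 in the WT libraries. The rest was 0.283 TPM in SMA 1, on a transcript reaching exon 6, and 0.253 TPM in SMA+MW150 1, on a transcript of exons 8 and 9. The labels do not say how the Smn alleles were disrupted, so these positions cannot be set against the deleted part.

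**Figure D1:**
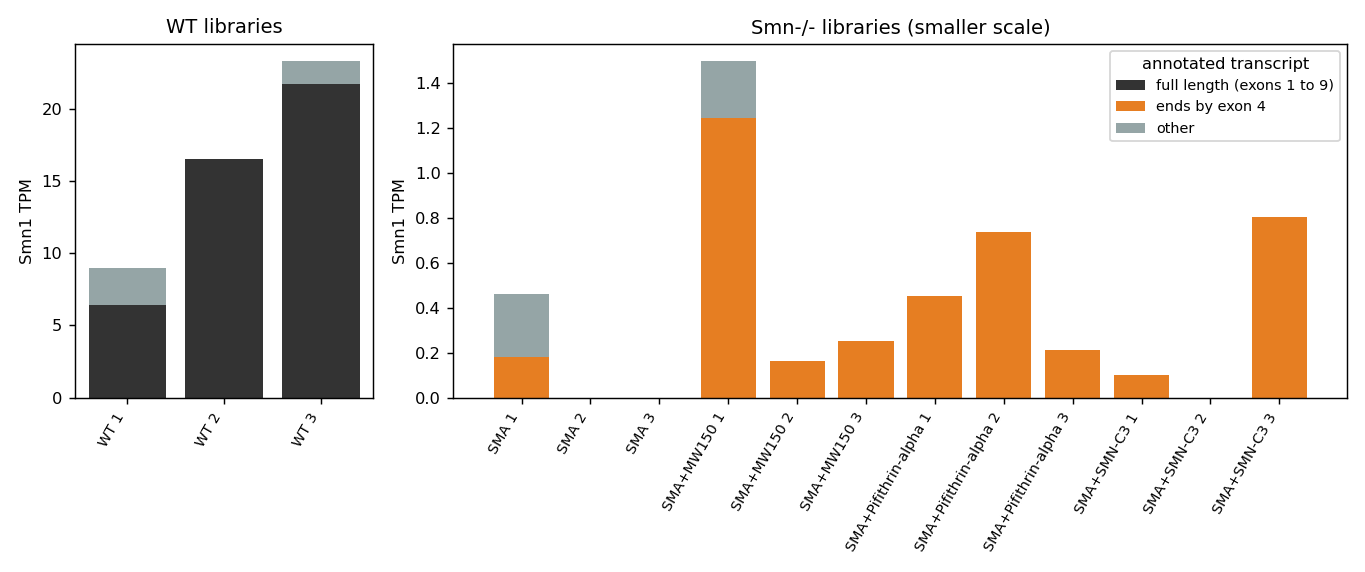
Smn1 TPM in each library, stacked by annotated transcript: WT libraries on the left, the 12 Smn-/- libraries on the right with a smaller vertical scale. The full-length transcript makes up most of each WT bar and is at 0 in every Smn-/- library, where most of the small remainder is assigned to transcripts that end by exon 4.

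None of the 8 partners passed the test in any comparison between groups. In SMA against WT, Smn1 was the only one of the 9 genes called at an adjusted p under 0.05, against 0.363% of the 15425 genes tested. The same held in SMA+MW150 against WT (0.143% of all genes called), SMA+Pifithrin-alpha against WT (0.117%), SMA+SMN-C3 against WT (0.0194%), all 12 Smn-/- libraries against WT (0.246%) and the F test over the 5 groups (0.22%). No member was called in SMA+MW150 against SMA (0.00648%), SMA+Pifithrin-alpha against SMA (0.00648%), SMA+SMN-C3 against SMA (0.0648%) or the F test over the 4 Smn-/- groups (0.0194%). At an unadjusted p under 0.05, 1 of 8 partners passed in SMA against WT (13.5% of all genes did) and 2 of 8 in all Smn-/- libraries against WT (9.77% of all genes did). The median log2 difference of the partners was 0.41 in SMA against WT, where that of all tested genes was 0.24. With all Smn-/- libraries it was 0.40, beside 0.14 for all genes. Without WT 1 and SMA+Pifithrin-alpha 3, the libraries of highest mitochondrial share, the partners' medians were 0.25 (0.12 for all genes) and 0.19 (0.089 for all genes). Median-of-ratios scaling brought the median of all genes in SMA against WT to 0.036. On that scale Gemin4 was at 1.21, Gemin2 at 0.56, Ddx20 at 0.33, Gemin5 at 0.34 and Gemin7 at 0.026, and Gemin6 (-0.081), Gemin8 (-0.24) and Strap (-0.17) were below 0. With so few calls in the whole table, a partner that missed the threshold is not shown to be unchanged, and the intervals below give the sizes of change that remain possible. All 9 genes passed the filter of at least 1 TPM in at least 3 libraries.

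**Figure D2:**
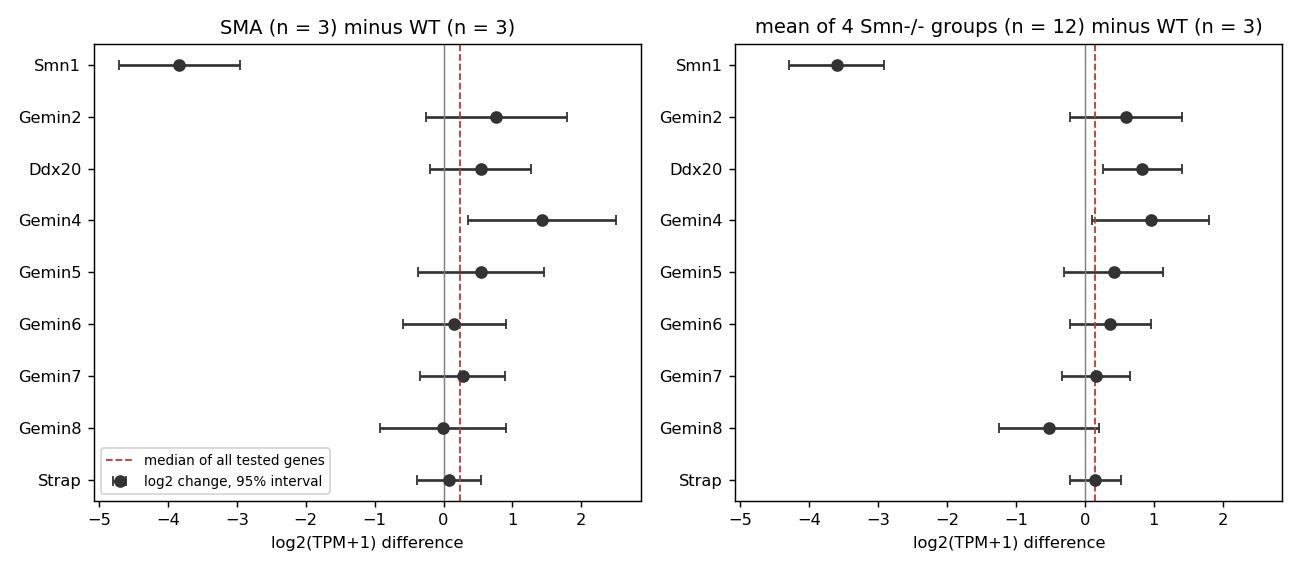
Differences in log2(TPM+1) for the 9 genes, with 95% intervals from limma: SMA minus WT on the left, the mean of the 4 Smn-/- groups minus WT on the right; the dashed line is the median of all tested genes. Smn1 stands far to the left in both panels (-3.84 and -3.60), and no partner passed the test after adjustment.

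In WT motor neurons the genes of the complex were present at very unequal mRNA levels. Gemin7 (128 ± 48.1 TPM, SD, n = 3) and Strap (98.5 ± 17.0 TPM) were highest, at the 90.9th and 88.5th percentile of the 13731 genes with a WT mean of at least 1 TPM. Smn1 followed at 16.3 TPM, then Gemin4 (13.01 ± 10.2 TPM), Gemin6 (12.4 ± 3.27 TPM), Gemin8 (8.34 ± 4.10 TPM), Gemin2 (7.11 ± 5.61 TPM), Gemin5 (4.24 ± 1.97 TPM) and Ddx20 (3.90 ± 0.906 TPM), the last at the 23.4th percentile. Between neighbours in this order, only the ranges of Strap and Smn1 did not overlap. In SMA the order was Gemin7, Strap, Gemin4, Gemin6, Gemin2, Gemin8, Gemin5, Ddx20 and Smn1. There the ranges were apart between Gemin7 and Strap, Strap and Gemin4, Gemin4 and Gemin6, and Ddx20 and Smn1. The place of Gemin4 in both orders rests on its gene sum, most of which was assigned to a short noncoding transcript. Its coding transcript alone had means of 3.24 TPM in WT and 4.56 TPM in SMA, below the Ddx20 gene sums of 3.90 and 6.18 TPM. The coding transcript of Ddx20 alone had means of 2.97 TPM in WT and 5.74 TPM in SMA. Coding against coding, Gemin4 was thus the higher in WT and Ddx20 in SMA, with overlapping ranges in both groups.

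**Figure D3:**
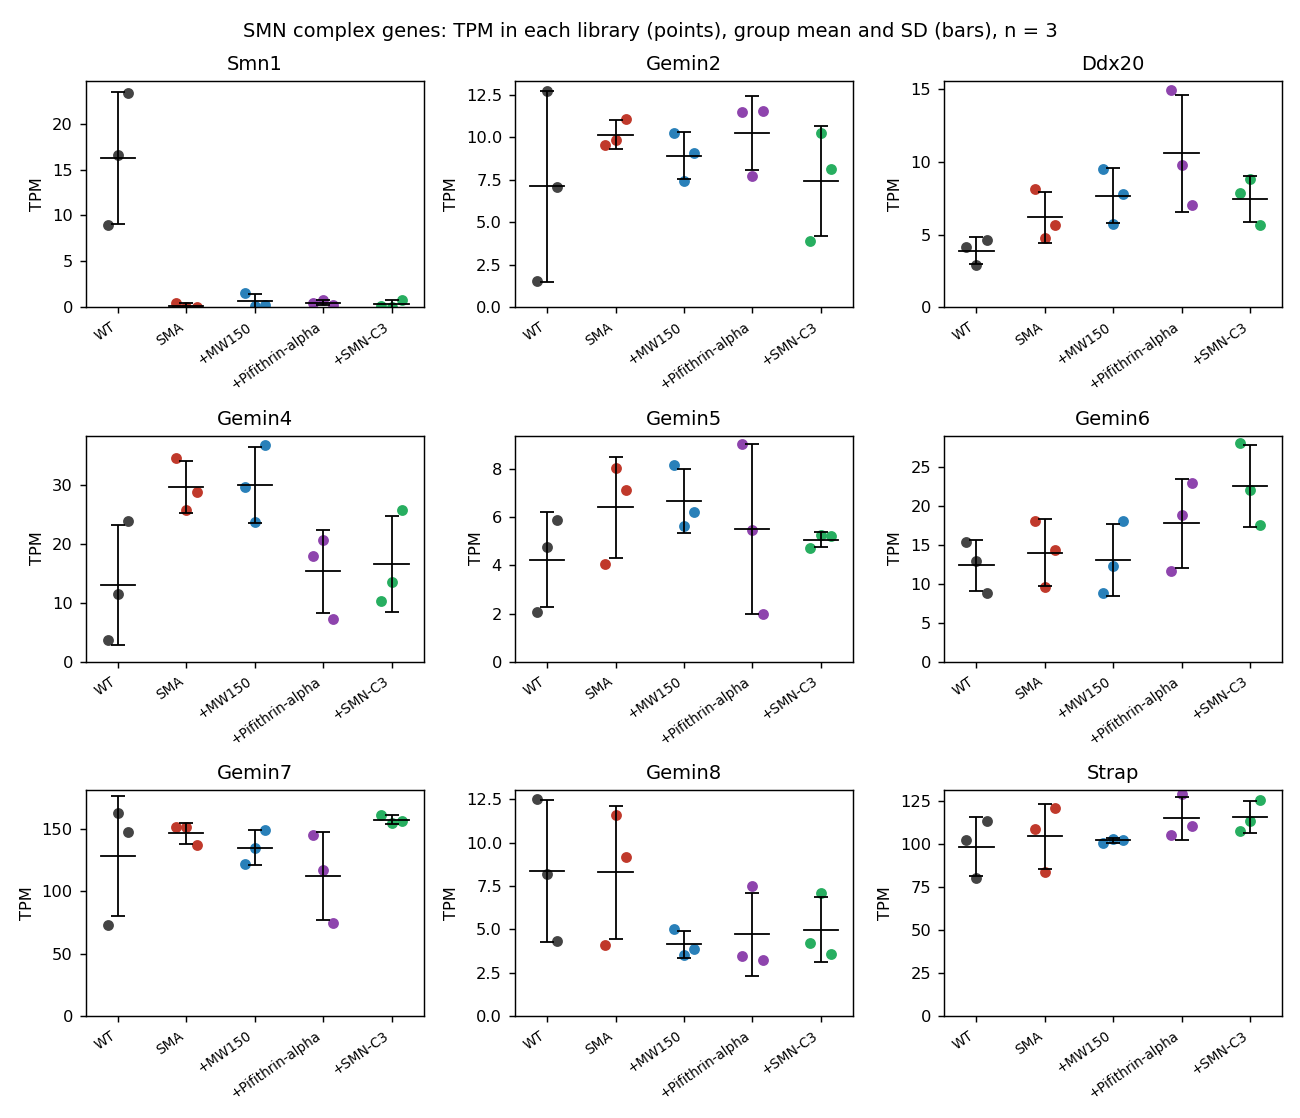
TPM of the 9 genes in each library, 1 panel per gene with its own vertical axis from 0; points are libraries, the horizontal line is the group mean and the bar its SD (n = 3). Smn1 is low in the 4 Smn-/- groups, and all 12 Smn-/- values of Ddx20 lie above its 3 WT values.

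Gemin2 (chr12:59013393-59028470, plus strand) binds SMN directly. In WT it was listed at 1.53, 12.7 and 7.05 TPM. SMA libraries held 9.51, 9.82 and 11.1 TPM. The WT values thus enclose those of SMA, and 1 low WT library sets much of the difference in means. The log2 difference was 0.77 (95% interval -0.26 to 1.79, limma adjusted p = 0.45). With WT 1 and SMA+Pifithrin-alpha 3 left out, the difference was 0.081. Over all Smn-/- libraries it was 0.60 (95% interval -0.21 to 1.41) with these libraries and -0.11 without them. Over the 9 treated libraries Gemin2 ran from 3.89 to 11.5 TPM.

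Gemin5 (chr11:58120002-58168539, minus strand, with an antisense gene, Gm12246, on the other strand) is the subunit that reads the small nuclear RNA. It ranged from 2.06 to 5.90 TPM in WT and from 4.05 to 8.06 TPM in SMA, so the groups overlapped. The log2 difference was 0.54 (95% interval -0.38 to 1.45, limma adjusted p = 0.54). It was 0.19 without the libraries of highest mitochondrial share and 0.0069 with that share as a term in the fit. Its signal was divided among several coding transcripts, of which the main one took 47.9%.

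Ddx20 (chr3:105678270-105687574, minus strand), the helicase, was the only partner whose 12 Smn-/- values all lay apart from its 3 WT values. Most Smn-/- libraries came from mice given a compound that no WT mouse received. Genotype and treatment cannot be told apart in them. WT libraries held 4.16, 2.89 and 4.64 TPM, and SMA libraries 8.14, 4.73 and 5.68 TPM. SMA+MW150 libraries held 9.50, 5.70 and 7.82 TPM. SMA+Pifithrin-alpha libraries held 14.96, 9.77 and 7.06 TPM, and SMA+SMN-C3 libraries 7.82, 8.82 and 5.67 TPM. All 12 Smn-/- values lay above all 3 WT values, although the nearest pair, 4.73 in SMA 2 and 4.64 in WT 3, almost touched. Of all genes tested, 0.558% were higher in this way. With means of 7.97 ± 2.73 TPM (SD, n = 12) and 3.90 ± 0.906 TPM (n = 3), the log2 difference was 0.84 (95% interval 0.26 to 1.42). Its unadjusted limma p was 0.00727, and it was not called after adjustment over all genes (adjusted p = 0.37).

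Without the libraries of highest mitochondrial share the difference of Ddx20 was as large, at 0.94 (limma adjusted p = 0.36). Its coding transcript, ENSMUST00000090680, was at 2.97 ± 1.06 TPM (SD, n = 3) in WT and had means of 5.74 to 9.60 TPM in the Smn-/- groups. The log2 difference of this transcript over all Smn-/- libraries was 1.06 and was not called either (limma adjusted p = 0.29). With vehicle in both groups, the gene differed by 0.54 in SMA against WT (95% interval -0.19 to 1.27, limma adjusted p = 0.45). The treated groups differed from WT by 0.82 in SMA+MW150, 1.204 in SMA+Pifithrin-alpha and 0.78 in SMA+SMN-C3. These 4 differences share the same 3 WT libraries, and none was called. Against SMA, the difference in SMA+Pifithrin-alpha was 0.66 (95% interval -0.07 to 1.39, limma adjusted p = 0.47).

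Gemin4, which binds Ddx20, lies on the minus strand (chr11:76210571-76217664). Its span overlaps Glod4 on the same strand and Fam57a and Dbil5 on the other. Whether reads of these genes entered the Gemin4 values was not tested. The coding transcript of Gemin4, ENSMUST00000102500, has 3540 bases. Of the Gemin4 TPM over all libraries, 83.8% was instead assigned to ENSMUST00000143822, a noncoding transcript of 234 bases. The first exon of this short transcript (chr11:76217478-76217517) lies in the first exon of the coding one. Its second exon (chr11:76217079-76217272) lies in the intron of the coding transcript and is printed here in capitals after the last 10 bases of the shared exon, in GRCm38 on the minus strand, since most of the signal called Gemin4 was assigned to a transcript that holds it.
ENSMUST00000143822, end of exon 1 into exon 2: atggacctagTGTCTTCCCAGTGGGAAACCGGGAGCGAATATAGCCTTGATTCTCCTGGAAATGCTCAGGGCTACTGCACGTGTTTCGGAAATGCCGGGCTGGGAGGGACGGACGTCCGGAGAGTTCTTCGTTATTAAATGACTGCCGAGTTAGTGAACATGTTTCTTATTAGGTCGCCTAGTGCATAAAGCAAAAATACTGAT

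At the gene level, Gemin4 had the largest difference of any partner between SMA and WT. WT libraries held 3.63, 11.5 and 23.9 TPM, and SMA libraries 34.5, 25.8 and 28.8 TPM. SMA+MW150 libraries held 29.7, 23.7 and 36.7 TPM. SMA+Pifithrin-alpha libraries held 18.0, 20.7 and 7.32 TPM, and SMA+SMN-C3 libraries 10.3, 13.6 and 25.8 TPM. All SMA values were above all WT values, as were those of Ddx20; these were 2 of 8 partners, beside 14.5% of all genes. The log2 difference between SMA and WT was 1.43 (95% interval 0.36 to 2.51) and was not called (limma adjusted p = 0.29). Without the libraries of highest mitochondrial share it was 0.79 (limma adjusted p = 0.46). Against SMA, Gemin4 differed by 0.0035 with MW150 (95% interval -1.07 to 1.08), by -1.02 with Pifithrin-alpha (-2.09 to 0.06) and by -0.90 with SMN-C3 (-1.97 to 0.18). All SMA+Pifithrin-alpha values were below those of SMA, as in 9.76% of all genes. The difference of SMA+Pifithrin-alpha from SMA was -0.59 without SMA+Pifithrin-alpha 3, which has the lowest value of that group and a high mitochondrial share, and -0.19 when that share was a term of the fit. The mean sum of the microglia markers was likewise higher in SMA (159 TPM) and SMA+MW150 (124 TPM) than in SMA+SMN-C3 (89.2 TPM), SMA+Pifithrin-alpha (87.0 TPM) and WT (67.3 TPM). Mean sums of some other lists were split in the same way. Oligodendrocyte lineage markers were at 2572 and 3048 TPM in SMA and SMA+MW150 against 1329, 852 and 1166 TPM in SMA+SMN-C3, SMA+Pifithrin-alpha and WT. In the same order, astrocyte markers were at 2031 and 2040 TPM against 1841, 1445 and 1530 TPM. Red blood cell markers were at 2175 and 1438 TPM against 1027, 812 and 1402 TPM. Motor neuron markers went the other way, at 9566 and 9626 TPM against 11736, 10281 and 10950 TPM. Vascular and spinal interneuron markers were not split so, with WT at 60.4 and 38.5 TPM and SMA at 60.4 and 30.1 TPM. The part of these lists in the Gemin4 values was not tested.

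Split by transcript, the larger difference in TPM was that of the short transcript. The differences of the 2 transcripts were not tested against each other, and their intervals overlapped. WT libraries held 1.83, 6.80 and 20.7 TPM of it and SMA libraries 28.3, 23.7 and 23.4 TPM, a log2 difference of 1.74 (95% interval 0.48 to 2.99, limma adjusted p = 0.30), or 1.003 without WT 1. Of the coding transcript, WT libraries held 1.81, 4.73 and 3.19 TPM and SMA libraries 6.22, 2.07 and 5.39 TPM, so its groups overlapped. Its log2 difference was 0.36 (95% interval -0.81 to 1.53, limma adjusted p = 0.79), and over all Smn-/- libraries it was -0.03 (-0.96 to 0.89). TPM is divided by transcript length, so a transcript of 234 bases reaches a high TPM from few fragments, and fragment counts were not analysed here.

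**Figure D4:**
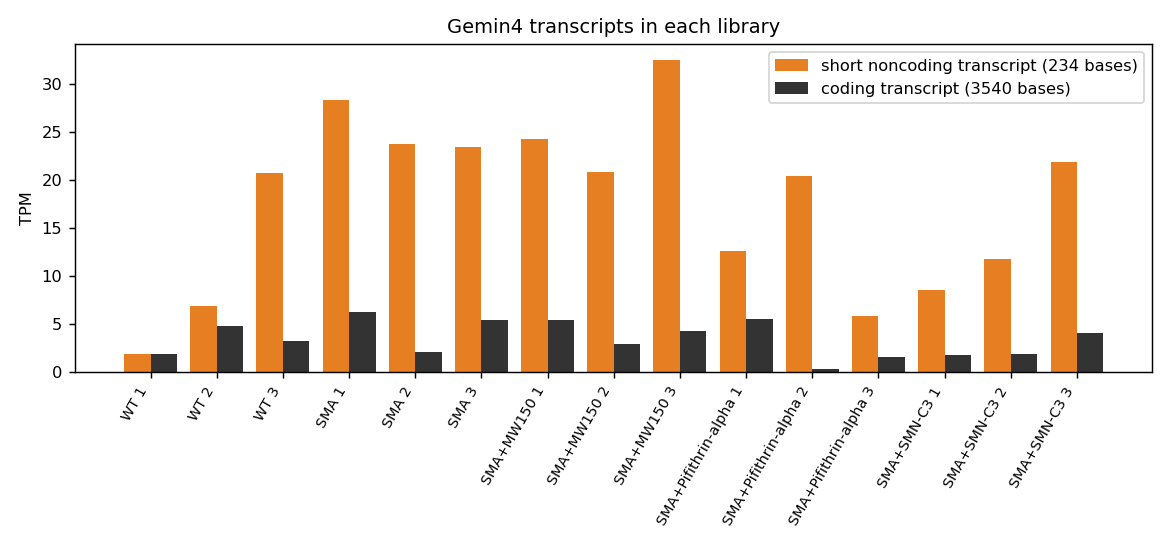
TPM of the 2 annotated Gemin4 transcripts in each library: the short noncoding one of 234 bases and the coding one of 3540 bases. The short transcript exceeds the coding one in all 15 libraries, by least in WT 1 (1.83 and 1.81 TPM). It is at 23.4 to 28.3 TPM in SMA and 1.83 to 20.7 TPM in WT, and the coding transcript overlaps between these groups.

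Of the peripheral group, Gemin6 (chr17:80224441-80228497, plus strand) and Gemin7 (chr7:19564946-19577595, minus strand, with Zfp296 on the other strand) bind each other through Sm-like folds. Gemin6 ranged from 8.85 to 15.3 TPM in WT and from 9.56 to 18.1 TPM in SMA, a log2 difference of 0.15 (95% interval -0.59 to 0.90, limma adjusted p = 0.84). Its highest group was SMA+SMN-C3, with 28.0, 22.0 and 17.5 TPM. These 3 values were above all WT values, as in 4.03% of all genes, yet they overlapped those of SMA, and the log2 differences of 0.82 from WT (limma adjusted p = 0.67) and 0.67 from SMA (limma adjusted p = 0.64) were not called.

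Gemin7 had the highest mean of the 9 genes in WT and in SMA. WT libraries held 73.1, 163 and 148 TPM, and SMA libraries 151, 152 and 137 TPM. The log2 difference was 0.28 (95% interval -0.34 to 0.89, limma adjusted p = 0.64). Without the libraries of highest mitochondrial share it turned to -0.082. In SMA+SMN-C3 Gemin7 spanned only 155 to 161 TPM, just above the SMA values, with a log2 difference of 0.10 from SMA that was not called (limma adjusted p = 0.95). Of all genes, 2.52% were higher in this group without overlap.

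Gemin8 (chrX:166170454-166190512, plus strand) links Gemin6 and Gemin7 to the rest of the complex. Its means were close in WT (8.34 TPM, range 4.33 to 12.5) and SMA (8.28 TPM, range 4.11 to 11.6), with a log2 difference of -0.01 (95% interval -0.93 to 0.91, limma adjusted p = 0.99). In the treated groups it was at 3.54 to 5.02 TPM with MW150, 3.25 to 7.47 TPM with Pifithrin-alpha and 3.57 to 7.11 TPM with SMN-C3. The differences from SMA were -0.77, -0.68 and -0.58. They share the SMA libraries, all 3 groups overlapped SMA, and none was called.

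Strap (chr6:137735078-137751932, plus strand), a WD-repeat protein bound to the Gemin6 and Gemin7 pair, had the narrowest interval of the partners. WT libraries held 102, 80.0 and 113 TPM, SMA libraries 109, 83.5 and 121 TPM, and the 9 treated libraries 101 to 129 TPM. The log2 difference between SMA and WT was 0.08 (95% interval -0.38 to 0.55, limma adjusted p = 0.87). Its coding transcript ENSMUST00000064910 made up 99.6% of its TPM.

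Low values of several partners fell in the same 2 libraries. Gemin4, Gemin5 and Gemin7 had their 2 lowest values of all 15 libraries in WT 1 and SMA+Pifithrin-alpha 3, the libraries of highest mitochondrial share. This pattern was common, since 26% of all tested genes had it. Gemin5 was at 2.06 and 1.99 TPM in these libraries and at 4.05 to 9.04 TPM in the other 13, and Gemin7 at 73.1 and 74.8 TPM against 117 to 163 TPM. Gemin2 was lowest in WT 1 but near its highest, at 11.5 TPM, in SMA+Pifithrin-alpha 3. Gemin8 was lowest in SMA+Pifithrin-alpha 3 but highest in WT 1, and neither of these libraries held the lowest value of Ddx20, Gemin6 or Strap.

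**Figure D5:**
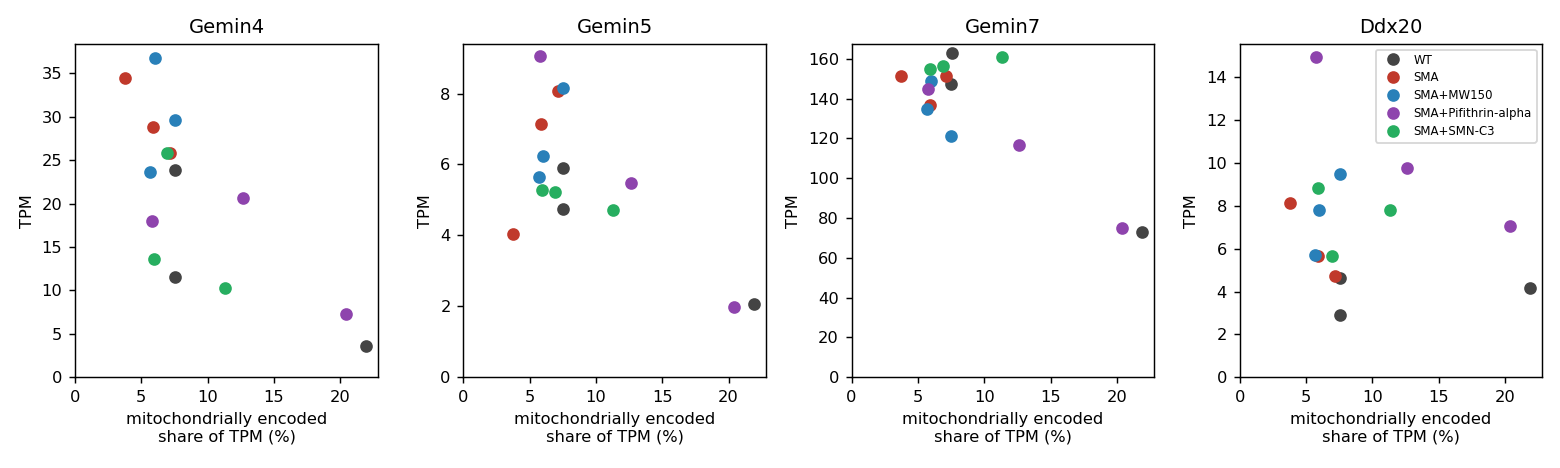
TPM of Gemin4, Gemin5, Gemin7 and Ddx20 against the share of TPM from 13 mitochondrially encoded genes, 1 point per library, coloured by group. The libraries at 21.9% and 20.4% hold the 2 lowest values of Gemin4, Gemin5 and Gemin7, but not those of Ddx20.

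The genes that work beside the complex were looked at as lists, and none of their members was called in any comparison. Of the 10 Sm core genes, whose proteins the complex loads, the median log2 difference between SMA and WT was 0.32, beside 0.24 for all genes. This list includes Lsm10 (0.48) and Lsm11 (-0.17), which encode Sm-like proteins. The largest difference of the list was that of Snrpb, the gene for SmB, with 64.1, 139 and 143 TPM in the WT libraries and 238, 226 and 209.9 TPM in the SMA libraries. Its log2 difference was 1.04 (SE 0.29, unadjusted p = 0.00211, limma adjusted p = 0.17). The smallest was that of Snrpe (-0.27, limma adjusted p = 0.75). The 14 genes of snRNP assembly outside the complex had a median of 0.29. Wdr77, a methylosome subunit, was at the upper end (0.78, limma adjusted p = 0.34) and Xpo1, an export receptor, at the lower (-0.88, limma adjusted p = 0.39). Of 17 genes for other SMN-binding proteins, 16 were tested, with a median of -0.04. Nolc1 had the largest difference (1.06, limma adjusted p = 0.37) and Pfn2, a profilin, the smallest (-0.52, limma adjusted p = 0.45). WT 1 held the lowest WT value of Snrpb, Wdr77 and Nolc1 and the highest WT value of Snrpe, Xpo1 and Pfn2.

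The genes whose values lay nearest to those of Smn1, by the root mean square of the log2 difference over the 15 libraries after centring each gene, were Ahsg (1.02), Grm7 (1.08), Alb (1.10), Slc10a7 (1.14) and Cmtm8 (1.14). These are distances on the log2 scale, where 0 is an identical pattern, and all exceed 1. Ahsg and Alb were low, reaching no more than 7.07 and 5.86 TPM. Both were at 0 TPM in WT 1, where Smn1 was at 8.97 TPM. In SMA 1 they were at 2.80 and 3.01 TPM, above the 0.462 TPM of Smn1. Genes near a partner are named only where that partner passed the F test over the 5 groups after adjustment, and no partner did.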

How the data were processed

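The authors deposited kallisto estimates as length-scaled TPM values per gene and per transcript. The submitters' processing notes name kallisto 0.44.0, DESeq2 and GRCm38.p6; the annotation release is not given in the sources used here. Of 118489 transcripts in the table, 116728 (98.5%) matched GENCODE M21, which supplied coordinates and sequences. Each library sums to the same total and no counts were used, so the depth behind a value is unknown and no count test or counting interval is given.

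Differences were tested with limma 3.58.1 in R 4.3.3 on log2(TPM + 1), with trend moderation, in a fit of all 15 libraries, on genes of at least 1 TPM in at least 3 libraries (15425 genes, 41719 transcripts). P-values are two-sided and were Benjamini-Hochberg adjusted over all features within a comparison, with calls at 0.05. "All Smn-/-" is the mean of the 4 group means. The fit was run on simulated data with independent noise in each library and changes only in genes of higher level than most partners. That run does not cover shifts shared by many genes of a library, nor the recovery of changes in most partners. Replicates are biological per the labels. The p-values set a difference against the spread between replicates, pooled over the 5 groups and moderated across genes, not that of the compared groups alone. The members and lists were chosen with earlier results of these data known. Named were the 9 members, the list genes with the largest and smallest difference between SMA and WT, and the 5 genes nearest to Smn1; lists covered Sm core genes, snRNP assembly, SMN-binding proteins and chromosome 13 neighbours. Other marker lists, in summed TPM over the 15 libraries, were astrocyte (949 to 2274), oligodendrocyte lineage (444 to 5842), vascular (19.4 to 94.2), spinal interneuron (13.9 to 53.0) and red blood cell (300.3 to 3548).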

Additional observations from a re-analysis of the deposited data

How the results depend on the processing

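Of 777 alternative values of 40 log2 differences, 738 kept their direction and side of the threshold, 31 changed sign, 6 lost the call and 2 gained it. The Smn1 call in SMA and in all Smn-/- libraries was lost only where a filter at a mean of 5 TPM took Smn1 out of the test (0 members called, also in the 5-group F test and each treated group against WT). Against WT it was also lost in the 3 treated groups with a pseudocount of 0.1 and in fits of only the groups compared (0 called each), although the log2 difference stayed between -5.86 and -3.40. With array weights, whose estimation did not converge and put most weight on 1 library, members called were 1 in SMA+Pifithrin-alpha against SMA (Ddx20), 5 against WT, 7 over 5 groups and 5 over the 4 Smn-/- groups. Leaving out 1 library, member transcripts called ran from 0 to 1 in SMA and in all Smn-/- libraries against WT, since full-length Smn1 then passes the filter in too few WT libraries; counts of member genes called stayed at their reported values.

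None of the differences that changed sign was called under any setting; the largest of them as reported was Gemin2 over all Smn-/- libraries, at 0.60. In SMA against WT, Gemin6 became -0.081 with median-of-ratios scaling and -0.072 with quantile normalization, and Strap -0.17, -0.11 and, with mitochondrial genes removed, -0.029. Gemin7 became -0.084 with array weights, -0.16 with the mitochondrial share as a term and -0.082 without the 2 libraries of highest share (an alternative chosen after seeing the data); Gemin8 became 0.22, 0.24 and 0.31. Over all Smn-/- libraries, Gemin2 became -0.18 with array weights and -0.11 without the 2 libraries, and Gemin7 -0.15, -0.13 and, with the share as a term, -0.0998. Leaving out 1 library, Gemin6 ran from -0.050 to 0.39, Gemin7 from -0.082 to 0.49, Gemin8 from -0.36 to 0.38 and Strap from -0.061 to 0.23 in SMA against WT; over all Smn-/- libraries Gemin2 ran from -0.085 to 1.14, Gemin7 from -0.20 to 0.38 and the coding Gemin4 transcript from -0.30 to 0.22.

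The number of all genes called moved more. Leaving array weights aside, and with single libraries left out included, it ran from 7 to 88 (56 as reported) in SMA against WT, from 15 to 62 (38) in all Smn-/- libraries against WT, from 17 to 131 (34) over 5 groups, from 0 to 166 (10) in SMA+SMN-C3 against SMA, from 9 to 42 (22) in SMA+MW150, 0 to 40 (18) in SMA+Pifithrin-alpha and 2 to 9 (3) in SMA+SMN-C3 against WT, and from 0 to 95 (3) over the 4 Smn-/- groups. With array weights it reached 9866 over 5 groups. No pairing by replicate number was apparent, although with 3 libraries a group a weak pairing could be missed. Same-number libraries correlated in their deviations by -0.342 to 0.285 (30 pairs) and other pairs by -0.253 to 0.342, both with a median of 0.008. Of 15 libraries, 7 correlated best with their own number. With the replicate block, members called were the same as without it, 1 in each comparison with WT and 0 against SMA.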

Other observations

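The genes beside Smn1 on chromosome 13 were read as a list of 9, of which 5 passed the filter and none was called in any comparison. Naip1, Naip2, Naip5 and Naip6 fell below the filter. The median log2 difference of the 5 between SMA and WT was -0.37, beside 0.24 for all genes. Ocln, a tight junction gene, had the largest difference (0.82, limma adjusted p = 0.45) at 0 to 4.29 TPM over the libraries.

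Mccc2, for a subunit of a mitochondrial carboxylase of leucine breakdown, had the smallest. It lies 109 kb before Smn1 and was at 28.0, 37.9 and 41.4 TPM in WT and at 6.21 to 25.2 TPM in the 12 Smn-/- libraries. Every Smn-/- value was below every WT value, as for Smn1; of all tested genes, 0.13% were lower in this way. The log2 difference over all Smn-/- libraries was -1.05 (SE 0.30), and it was not called (limma adjusted p = 0.27). Serf1, 10.3 kb before Smn1 and named here after its values were seen, was at 111 to 179 TPM in WT and 78.0 to 124 TPM in the Smn-/- libraries, with a log2 difference of -0.53 (limma adjusted p = 0.43). Gtf2h2 and Bdp1, also named after their values were seen, differed by -0.17 and 0.25. No cause of these differences was tested.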
